A study of Rattus norvegicus with 9 samples.

Results

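Brain RNA of rats given astaxanthin before a stroke was set against that of rats with the same stroke and no astaxanthin. The comparison takes 6 of the 9 sequenced libraries, chosen by their labels: astaxanthin 1, 2 and 3 against model 1, 3 and 4. The remaining 3 libraries, sham 1, 3 and 5, came from sham-operated rats and served to estimate the spread and to give an uninjured level beside each value. All groups were male Sprague-Dawley rats. In the model group a middle cerebral artery was occluded on a single side. Rats of the astaxanthin group received the carotenoid by gavage at 45 mg/kg, named the medium dose, for 7 days, and then had the same occlusion. Brain tissue was taken 1 day after the operation. The labels give no age, brain region, side or vehicle for the model group, and they do not say that each library is a separate animal, so a p-value here measures only the spread between libraries. All genes were examined: of 22888 genes in the table, 17770 passed the filter on low values and were tested.

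Occlusion of the middle cerebral artery starves cortex and striatum of blood, and the dying tissue sets off an inflammatory response through pattern receptors such as the Toll-like receptors. Neurons around the injury also fire abnormally, and activity and growth factor signalling through the kinase ERK and the calcium-responsive factor CREB switch on immediate early genes such as Fos, Egr1 and Arc, whose products in turn set the levels of slower plasticity genes. Astaxanthin is a red carotenoid taken up with dietary fat that quenches reactive oxygen species in membranes. Cell death by apoptosis and signalling by Toll-like receptors are named as the study's subject.

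The libraries held 52268061 to 76311125 recovered reads. Neurons and astrocytes were represented in each: Rbfox3, a nuclear protein of mature neurons, ranged from 5678 to 33652 normalised reads and Gfap, the astrocyte filament protein, from 13459 to 201186. A pair of libraries stood apart within their groups. Astaxanthin 1 carried tissue markers of the cerebellum and the choroid plexus: all 16 cerebellar markers tested and 12 of 19 choroid plexus and ependymal markers were highest in it, with Gabra6, which encodes a GABA receptor subunit, at 44128, 256 and 20.4 in astaxanthin 1, 2 and 3. The choroid plexus markers were high in sham 5 as well, which was the highest library for 4 of the 19. That list stood at 3.21 log2 units above the sham mean in astaxanthin 1 and 2.91 in sham 5, against -1.19 and -1.73 in sham 1 and 3. Model 3 was highest for 11 of 16 neutrophil markers, with S100a9, a neutrophil calcium-binding protein, at 235, 8232 and 205 in model 1, 3 and 4. In astaxanthin 1, 588 genes lay at least 4-fold above and 903 at least 4-fold below both other libraries of the group, and in model 3 the numbers were 855 and 449, while the other libraries had 189 to 494 above and 206 to 416 below. Values of named genes are therefore also given without these libraries, below also called the smaller fit, where the log2 fold change differed by over 1.5 times or in sign. In whole tissue, fewer cells of a type and less RNA per cell cannot be told apart.

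No gene passed the test. With limma on log2(normalised reads + 1) and Benjamini-Hochberg adjustment, 0 of 17770 genes (0%) had an adjusted p under 0.05, and the smallest adjusted p was 0.125, for Slc30a4. Without adjustment 1579 genes (8.89%) had a limma p under 0.05, 686 of them higher in the astaxanthin libraries (3.86%) and 893 lower (5.03%). Every astaxanthin library lay above every model library in 1017 genes (5.72%) and below in 1287 (7.24%). The median log2 fold change over all genes tested was -0.01. The edgeR quasi-likelihood test on recovered reads also called 0 genes (1816 with an unadjusted p under 0.05, 10.2%) and limma-voom called 0 (1523 unadjusted, 8.57%). DESeq2 called 204 of 16796 genes (1.21%), 59 higher (0.351%) and 145 lower (0.863%), and 196 of these 204 were among the genes with an unadjusted limma p under 0.05. Without astaxanthin 1 and model 3, limma called 0 genes and 1340 had an unadjusted p under 0.05 (7.69%). Leaving out model 4 alone, limma called 3 genes, and leaving out any other single library it called 0. In simulated data with 18781 genes the fit recovered 1% of 2-fold and 72% of 8-fold changes, so a change near 2-fold was mostly not detectable with 3 libraries a group. Values below describe single genes, each with an adjusted p of 0.125 or more in limma, and "lower" and "higher" describe these libraries.

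**Figure D1:**
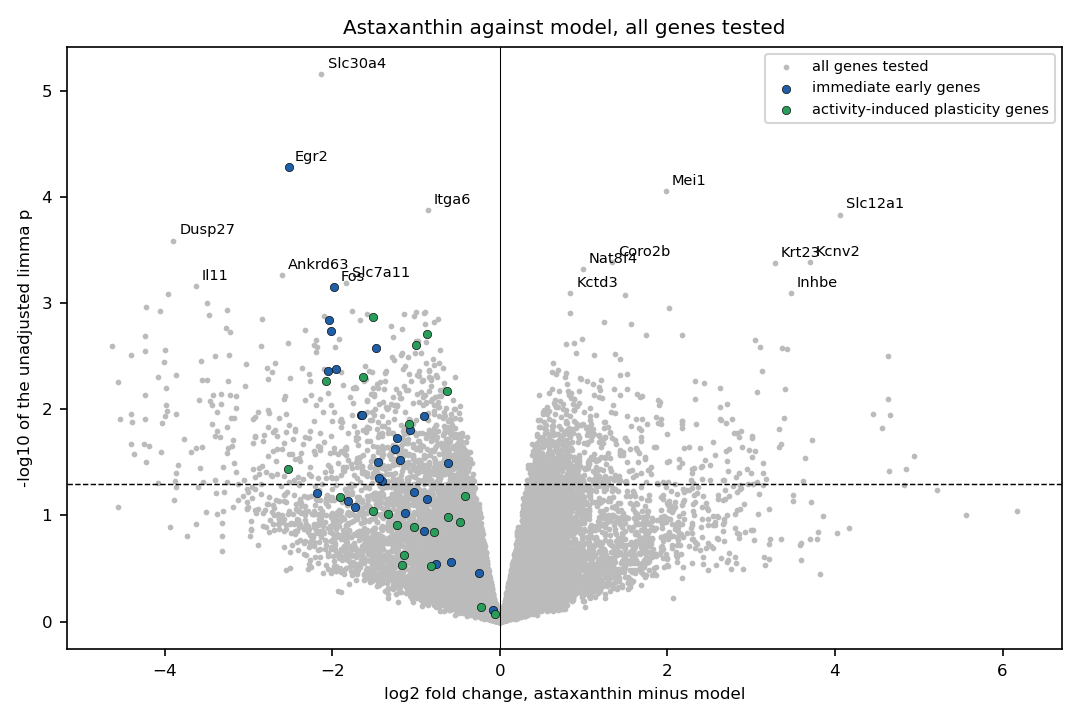
Each point is a gene tested, placed by its log2 fold change of astaxanthin minus model (x axis) and the -log10 of its unadjusted limma p (y axis), with the dashed line at an unadjusted p of 0.05. Immediate early genes and activity-induced plasticity genes, in colour, all lie below 0, and Slc30a4 has the smallest p.

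The gene with the smallest p was Slc30a4 (chromosome 3, 109753273 to 109775306 in rn7), a transporter that moves zinc out of the cytosol into vesicles. It stood at 1549, 1920.1 and 1549 normalised reads in astaxanthin 1, 2 and 3, at 9159.5, 5617 and 7480.3 in model 1, 3 and 4 and at 5913, 7301 and 4984 in sham 1, 3 and 5, and all later values follow this order of libraries. The astaxanthin libraries lay below every model and sham library, which overlapped each other. Its log2 fold change against model was -2.13 ± 0.22 (SE) (limma adjusted p = 0.125), it was -2.26 without astaxanthin 1 and model 3, and DESeq2 gave an adjusted p of 3.29e-13. Of 26 zinc transporters and metallothioneins, 5 had an unadjusted limma p under 0.05, each lower, against 5.03% of all genes. The list's median log2 fold change was -0.06, with 3 lower in the smaller fit, against 4.14% of all genes. Among them Slc30a1, the zinc exporter of the plasma membrane, stood at 1117, 1837 and 1653 in astaxanthin and 2752, 3162 and 2034 in model (-0.79 ± 0.24 (SE); -0.44 without astaxanthin 1 and model 3). The importer Slc39a1 had a log2 fold change of -0.81 ± 0.30 (SE), or -0.27 without astaxanthin 1 and model 3.

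Itga6 (chromosome 3, 56617268 to 56689428 in rn7), the laminin-binding integrin alpha 6, stood at 3196, 3176 and 3439 in astaxanthin, 5917, 5912 and 5978 in model and 4378, 3658 and 4218 in sham. The model libraries lay above the sham libraries and the astaxanthin libraries below them, with a log2 fold change against model of -0.86 ± 0.13 (SE) (limma adjusted p = 0.524), -0.85 without astaxanthin 1 and model 3. Ankrd63, an ankyrin repeat protein gene, stood at 319, 339.6 and 706 in astaxanthin, 4638, 1315 and 2817 in model and 3718, 5835 and 3267 in sham (-2.60 ± 0.49 (SE)), again with every astaxanthin library below all others. Dusp27 was listed at 0 in all astaxanthin libraries, at 8.4, 28.8 and 10.9 in model and at 20, 14.8 and 12.4 in sham, at least 5.57-fold lower than the model mean against a floor of 3 reads per library.

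Il11 (chromosome 1, 69068137 to 69076129 in rn7), a cytokine of the interleukin-6 family that signals through gp130 and STAT3, was at 0 in every sham library, at 1901, 1387 and 723 in model and at 32.5, 176 and 167 in astaxanthin. No astaxanthin library reached the lowest model library, and the log2 fold change was -3.63 ± 0.71 (SE) (limma adjusted p = 0.548), or -2.77 without astaxanthin 1 and model 3. Slc7a11 (chromosome 2, 133963107 to 134517536 in rn7), the cystine importer that feeds glutathione synthesis, stood at 629, 943 and 1619 in astaxanthin, 3898, 4439.5 and 2541 in model and 1091, 1039 and 1407 in sham. The astaxanthin and sham libraries overlapped, and all lay below the model libraries (-1.84 ± 0.35 (SE), limma adjusted p = 0.548; -1.35 without astaxanthin 1 and model 3).

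Several of the genes with the smallest p in the higher direction were barely expressed. Mei1 (chromosome 7, 113590142 to 113643511 in rn7), known for its part in meiotic recombination in mice, stood at 1040.1, 643 and 729.6 in astaxanthin, 177, 192 and 232 in model and 339, 263 and 407 in sham, with the astaxanthin libraries above all others (log2 fold change 1.98 ± 0.29 (SE), limma adjusted p = 0.521). Coro2b, an actin-binding coronin of neurons, stood at 18022, 15559 and 12305 in astaxanthin, 5009.9, 5073 and 8403 in model and 13817, 15695 and 12978 in sham. Here the astaxanthin libraries overlapped the sham libraries and lay above every model library (1.34 ± 0.24 (SE)). Kctd3 followed the same order, at 7052, 5559 and 6843 in astaxanthin, 4077, 3823 and 2999 in model and 6101, 6498 and 6209 in sham (0.84 ± 0.17 (SE)). Nat8f4 stood at 750.5, 739.6 and 805 in astaxanthin and 395, 351 and 411 in model, and its sham libraries, at 1504, 1403 and 1233, were higher than both (0.99 ± 0.18 (SE)). The remaining 4 genes were listed at 0 in every model library and at no more than 21.7 in astaxanthin: the kidney sodium-potassium-chloride cotransporter Slc12a1 (at least 5.67-fold higher), the silent potassium channel subunit Kcnv2 (at least 4.3-fold), the keratin Krt23 (at least 3.06-fold) and the activin subunit Inhbe (at least 3.8-fold), against the same floor. Inhbe was also at 0 in sham, while the other 3 were present there.

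**Figure D2:**
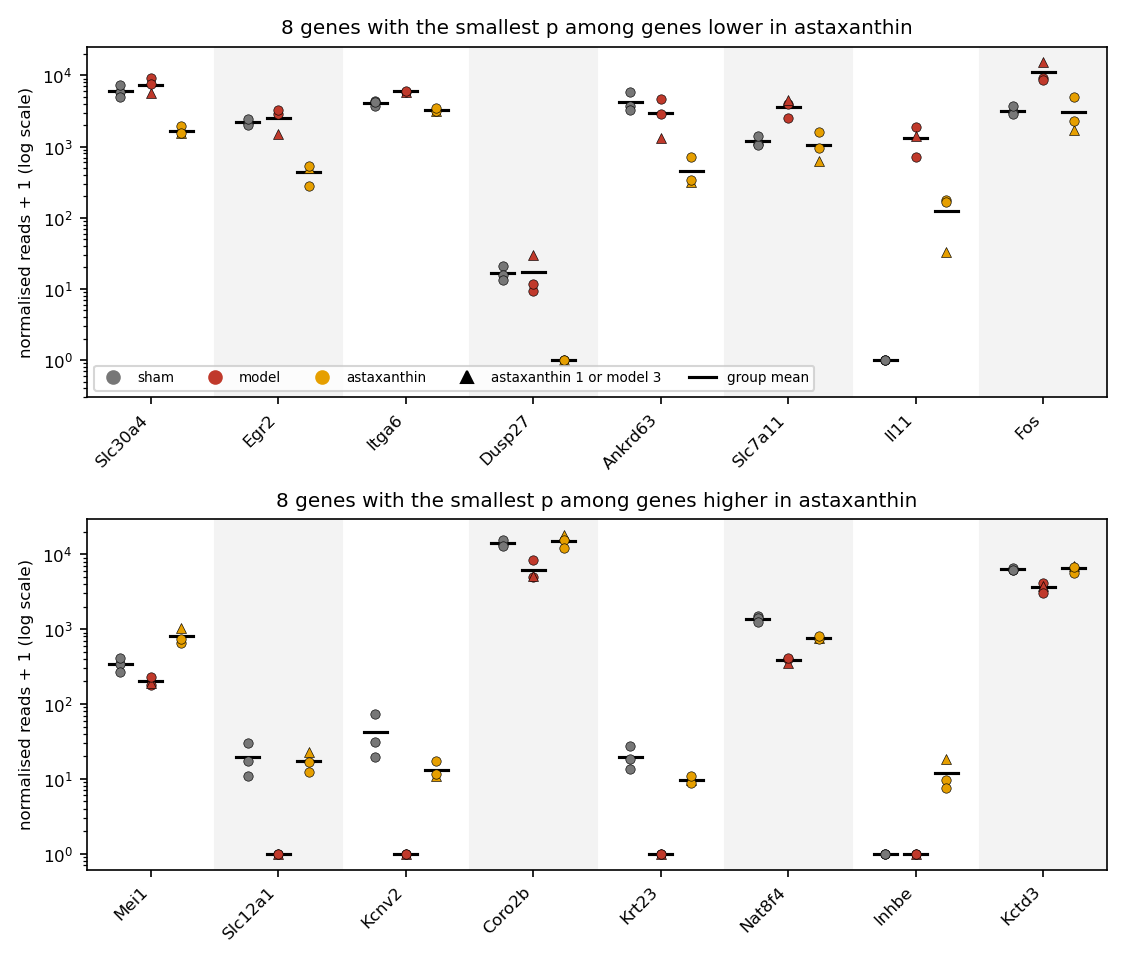
Normalised reads plus 1 (y axis, log scale) of the 8 genes with the smallest p in each direction, with 1 point per library, colour by group, a bar at the group mean and triangles for astaxanthin 1 and model 3. The groups of astaxanthin and model do not overlap in any of the 16 genes, and for Slc30a4, Egr2, Ankrd63, Itga6 and Dusp27 astaxanthin also lies below sham.

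The list with the most genes lower at an unadjusted p under 0.05 was the immediate early genes. Of 29 tested, 29 had a negative log2 fold change, with a median of -1.41 against -0.01 for all genes, and 18 had an unadjusted limma p under 0.05 in the lower direction, set against 5.03% of all genes. In 15 of the 29 every astaxanthin library lay below every model library, against 7.24% of all genes. DESeq2 called 7 of them lower, against 0.863% of all genes. Without astaxanthin 1 and model 3 the median was -0.65, and 12 had an unadjusted p under 0.05, against 4.14% of all genes. Relative to the sham mean, the list stood at 1.11, 1.48 and 1.09 log2 units in model 1, 3 and 4 and at -0.62, 0.62 and -0.38 in astaxanthin 1, 2 and 3, so the astaxanthin libraries lay on both sides of sham. Model 3 was the highest library for 16 of the 29 and model 1 for 8, and the part of single libraries in the result was not tested beyond the fit without them.

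Some of these genes carry DNA elements through which activity is known to act on them. Start regions are printed only for Egr1, Egr2, Ier2 and Btg2, each of which has a match. Sequences run from 250 bases before to 50 after the transcription start and are RefSeq's for the build GRCr8, which is not the build of the tables. Of the 29 genes, 20 had a sequence there, and the rest were not searched. Capitals mark a CArG box, the element bound by serum response factor, in Egr1 and Egr2, and a full cyclic AMP response element, TGACGTCA, in Ier2 and Btg2.
Egr1 (chr18:26736828-26737127, plus strand): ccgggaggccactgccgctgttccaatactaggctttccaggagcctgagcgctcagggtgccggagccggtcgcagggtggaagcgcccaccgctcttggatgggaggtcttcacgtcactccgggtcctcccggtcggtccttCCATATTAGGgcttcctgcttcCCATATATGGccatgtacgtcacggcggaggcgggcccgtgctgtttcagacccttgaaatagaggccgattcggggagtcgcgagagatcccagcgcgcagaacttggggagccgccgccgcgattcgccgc
Egr2 (chr20:21054392-21054691, minus strand): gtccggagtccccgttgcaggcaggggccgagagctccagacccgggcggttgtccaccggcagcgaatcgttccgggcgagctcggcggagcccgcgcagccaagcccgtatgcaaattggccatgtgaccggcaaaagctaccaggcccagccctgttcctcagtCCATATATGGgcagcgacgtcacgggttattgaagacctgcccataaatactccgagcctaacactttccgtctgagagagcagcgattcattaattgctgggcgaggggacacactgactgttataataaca
Ier2 (chr19:40399123-40399422, plus strand): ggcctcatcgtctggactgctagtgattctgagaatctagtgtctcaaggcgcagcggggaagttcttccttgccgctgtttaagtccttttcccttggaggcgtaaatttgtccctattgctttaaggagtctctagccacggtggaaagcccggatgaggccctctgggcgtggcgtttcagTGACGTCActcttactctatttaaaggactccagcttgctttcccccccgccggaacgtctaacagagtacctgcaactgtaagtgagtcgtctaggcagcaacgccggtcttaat
Btg2 (chr13:48087641-48087940, minus strand): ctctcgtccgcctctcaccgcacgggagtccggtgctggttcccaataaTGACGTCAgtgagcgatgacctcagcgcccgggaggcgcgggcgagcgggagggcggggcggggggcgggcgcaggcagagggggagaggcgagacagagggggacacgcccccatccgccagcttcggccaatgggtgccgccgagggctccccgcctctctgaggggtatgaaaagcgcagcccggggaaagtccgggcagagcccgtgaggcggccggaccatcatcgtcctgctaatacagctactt
Searched on both strands, a CArG box occurred in 3 of the 20 (15%), Egr1 with 2 of them, Egr2 and Klf6, against 1.64% of 27456 promoters of the same length. The element TGACGTCA occurred in 4 of 20 (20%), Btg2, Ier2, Jund and Maff, against 1.91% of all promoters, and the AP-1 motif TGANTCA in 0 of 20, against 7.33%. No stretch that matches TGACGTCA also contains TGANTCA. A match is a description of these letters, not a sign of binding.

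Among the zinc-finger factors of the Egr family, Egr2 (chromosome 20, 21051277 to 21055562 in rn7), which carries the CArG box shown, stood at 491, 526 and 276 in astaxanthin, 2856, 1486 and 3219 in model and 2140.4, 2032 and 2434 in sham. Every astaxanthin library was below every model and sham library, and the sham libraries lay within the range of model (log2 fold change -2.52 ± 0.34 (SE), limma adjusted p = 0.468; -2.99 without astaxanthin 1 and model 3). Egr1 (chromosome 18, 26462981 to 26466766 in rn7) stood at 5066, 11192 and 2492 in astaxanthin, 24382, 19785 and 19313 in model and 16965, 19877 and 15797 in sham. It showed the same order, with astaxanthin 2 nearest to the others (-2.01 ± 0.45 (SE), limma adjusted p = 0.548). The log2 fold change of Egr4 was -1.96 ± 0.51 (SE) and that of Egr3 -1.81 ± 0.88 (SE), the latter with overlapping groups. The corepressor of Egr factors Nab2 stood at -0.08 ± 0.28 (SE), or -0.27 in the smaller fit.

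Among the AP-1 factors, Fos (chromosome 6, 105121170 to 105124036 in rn7), the best-known marker of recent neuronal activity, stood at 1722, 5005 and 2298 in astaxanthin, 9213, 15435 and 8579 in model and 3051, 2878 and 3658 in sham. The astaxanthin and sham libraries overlapped and lay below the model libraries (-1.98 ± 0.39 (SE), limma adjusted p = 0.548; -1.39 without astaxanthin 1 and model 3). Fosl2 stood at 2002, 4899 and 4336 in astaxanthin, 10590.5, 9521 and 9153 in model and 2254, 2218 and 3943 in sham, again without overlap of astaxanthin and model (-1.48 ± 0.35 (SE)). The log2 fold change was -2.05 ± 0.54 (SE) for Fosb and -0.91 ± 0.29 (SE) for Jun, its binding partner (-0.42 in the smaller fit), while Jund, which is expressed without stimulation, stood at -0.25 ± 0.25 (SE) with overlapping groups and at 0.00 in the smaller fit. Ier2 and Btg2, whose promoters are printed above, stood at -1.07 ± 0.36 (SE) and -1.45 ± 0.57 (SE), and at -0.50 and -0.57 without astaxanthin 1 and model 3. Arc (chromosome 7, 106555785 to 106559378 in rn7), which trims glutamate receptors from synapses, stood at 4992, 3870.3 and 1992 in astaxanthin, 19409, 7290 and 19103 in model and 10418, 14702 and 11156 in sham, with every astaxanthin library below all others (-2.04 ± 0.45 (SE), limma adjusted p = 0.548; -2.79 without astaxanthin 1 and model 3).

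The list of slower activity-induced plasticity genes also holds feedback inhibitors of ERK such as Dusp6 and Spry4. All 22 tested had a negative log2 fold change, with a median of -1.05 against -0.01 for all genes. Of them 8 had an unadjusted limma p under 0.05, against 5.03% of all genes lower, and DESeq2 called 5 lower, against 0.863%. In this list the fit without astaxanthin 1 and model 3 gave 16 of 22 lower at an unadjusted p under 0.05, against 4.14% of all genes, at a median of -0.89. Model 3 stood apart from its group. The list lay at 1.58, 0.20 and 0.86 log2 units above the sham mean in model 1, 3 and 4 and at -0.75, -0.07 and 0.18 in astaxanthin. The ERK phosphatase Dusp6 (chromosome 7, 34092943 to 34097185 in rn7) stood at 1501, 2460.2 and 1832 in astaxanthin, 8875, 4956 and 3569 in model and 3273, 3544 and 2905 in sham. The sham libraries lay between astaxanthin and model, and the 3 groups did not overlap (-1.51 ± 0.33 (SE), limma adjusted p = 0.548). The ERK inhibitor Spry4 stood at 894, 1225 and 791 in astaxanthin and 2315, 2060.2 and 1444 in model, the ADP-ribosyltransferase Tiparp had -0.87 ± 0.20 (SE) as its log2 fold change and the kinase Sik1, which restrains CREB signalling, one of -1.63 ± 0.44 (SE) (-0.93 in the smaller fit). Inhba, the activin A subunit, stood at 1309, 1214 and 2315 in astaxanthin, 15099, 2569.6 and 6980.3 in model and 170.1, 206 and 195 in sham, a log2 fold change of -2.07 ± 0.56 (SE) or -2.61 without astaxanthin 1 and model 3. It was above sham in all astaxanthin libraries and higher still in all model libraries.

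For some activity-induced genes model 3 was low, and these are named here after their values were seen. Bdnf, the neurotrophin, stood at 1348, 1264 and 3865 in astaxanthin, 13080.1, 587 and 9708 in model and 1852, 1906 and 2143 in sham. Model 3 was the lowest of all 9 libraries, and the log2 fold change was -1.17 ± 1.04 (SE) with all libraries and -2.35 without astaxanthin 1 and model 3. Nptx2, a pentraxin that clusters AMPA receptors, stood at 13374, 15891 and 13404 in astaxanthin and 145722, 9703 and 46536 in model, at -1.51 ± 0.80 (SE) and -2.50 in the 2 fits. For Homer1, a postsynaptic scaffold gene, they were -0.91 ± 0.56 (SE) and -1.19. The neuropeptide genes Sst and Penk stood at 0.00 and -1.19 in the smaller fit. Sst had a negative log2 fold change with all libraries, so between the fits it moved the opposite way to Bdnf, Nptx2 and Homer1.

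**Figure D3:**
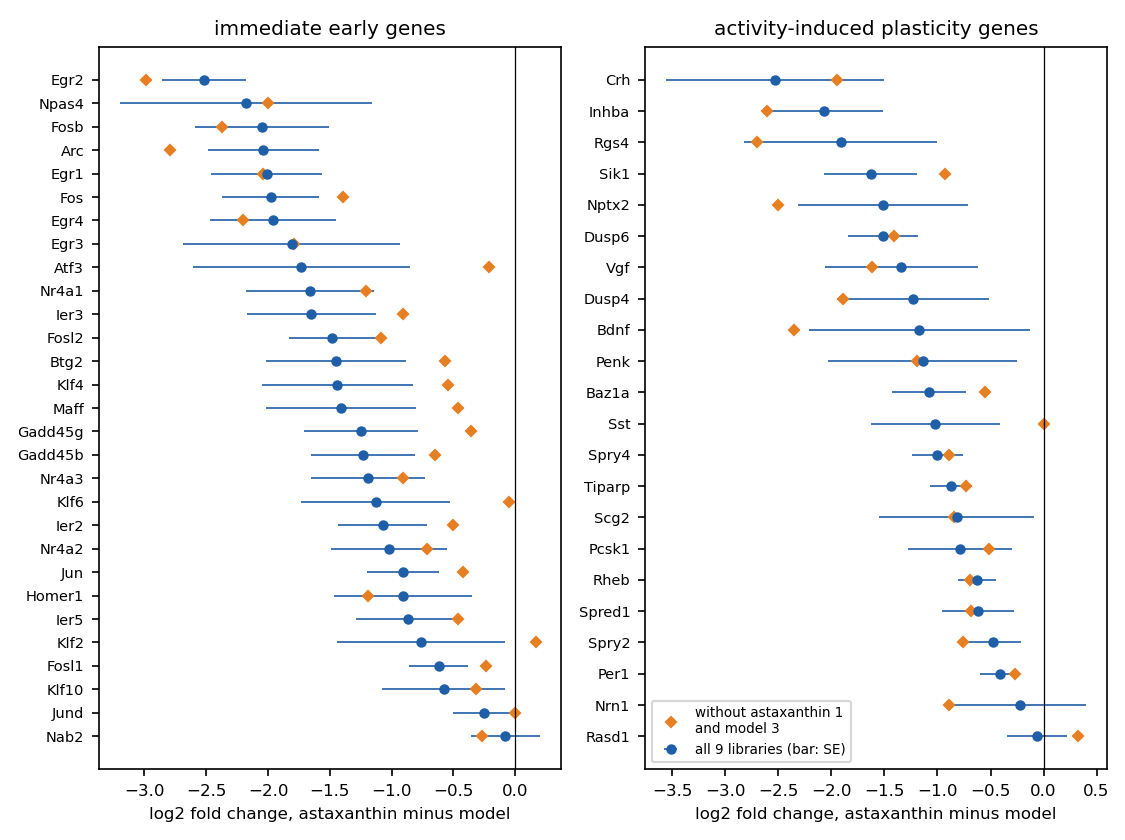
Log2 fold change of astaxanthin minus model (x axis) for each immediate early gene (left) and activity-induced plasticity gene (right), circles with SE bars for the fit of all 9 libraries and diamonds for the fit without astaxanthin 1 and model 3. All circles lie below 0, and without the 2 libraries most immediate early genes lie nearer to 0, while Egr2, Arc, Rgs4, Nptx2 and Bdnf lie farther from it.

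Toll-like receptor signalling, which the study asked about, showed a few lower genes and many near 0. Of 39 genes tested, 6 were lower and 1 higher at an unadjusted limma p under 0.05, against 5.03% and 3.86% of all genes, with a median log2 fold change of -0.29. Without astaxanthin 1 and model 3, 2 of 38 were lower, a share near the 4.14% of all genes, and 0 higher, with a median of -0.01. Map2k3, a kinase that activates p38, stood at 1011, 1300.2 and 1270.2 in astaxanthin, 2809.9, 2664 and 1846 in model and 649, 603 and 771 in sham. The astaxanthin libraries lay between sham and model without overlap (-1.02 ± 0.22 (SE), limma adjusted p = 0.548; -0.83 without astaxanthin 1 and model 3; DESeq2 adjusted p = 0.00547). Its relative Map2k6 was the gene that stood higher, at 994, 885 and 658 in astaxanthin against 261, 308 and 746 in model and 1558, 1629.5 and 1386 in sham (1.09 ± 0.38 (SE)), with astaxanthin 3 below model 4. The lipopolysaccharide co-receptor Cd14 stood at 454, 1286 and 1525 in astaxanthin, 5338, 4038 and 2188 in model and 18.8, 43.2 and 70.4 in sham (-1.91 ± 0.61 (SE); -1.29 without astaxanthin 1 and model 3).

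The receptors themselves were little expressed. Tlr4, the lipopolysaccharide receptor, stood at 162, 83.7 and 60.5 in astaxanthin, 198, 465 and 136 in model and 73.8, 75.4 and 99.4 in sham, and astaxanthin 1 overlapped the model libraries (-1.30 ± 0.54 (SE)). Tlr2, the lipopeptide receptor, stood at 104, 418 and 290.4 in astaxanthin and 466, 778 and 396 in model (-1.16 ± 0.51 (SE); -0.30 without astaxanthin 1 and model 3). The shared adaptor Myd88 stood at 630.1, 1803 and 1195 in astaxanthin and 2467, 2795 and 1662 in model, and astaxanthin 2 reached above model 4 (-1.02 ± 0.37 (SE); -0.46 in the smaller fit). The transcription factor subunits Nfkb1 and Rela stood at -0.20 ± 0.26 (SE) and -0.38 ± 0.30 (SE), and at 0.03 each without astaxanthin 1 and model 3. Of 20 feedback targets of NF-kappaB, 6 were lower, against 5.03% of all genes, with a median of -0.91. In the smaller fit 2 of the targets were lower, against 4.14% of all genes, with a median of -0.12. Among them Ptgs2, the inducible prostaglandin synthase, stood at 3281, 5021 and 12256 in astaxanthin, 33729.6, 11256 and 25979 in model and 2416, 2432 and 2469 in sham with astaxanthin 3 above model 3 (-1.87 ± 0.51 (SE); -1.92 without astaxanthin 1 and model 3).

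For apoptosis, 5 of 23 promoting genes and 3 of 14 restraining genes were lower and 0 of either were higher at an unadjusted limma p under 0.05. Of all genes 5.03% were lower and 3.86% higher. The medians were -0.53 and -0.35. In the smaller fit 2 and 1 were lower, against 4.14% of all genes, with medians of -0.10 and -0.12. The death receptor Tnfrsf1a stood at 1215, 2399 and 2908 in astaxanthin, 3604, 8122 and 3305 in model and 607, 630 and 583 in sham. The astaxanthin libraries lay between sham and model without overlap (-1.17 ± 0.40 (SE); -0.39 in the smaller fit). Cflar, which restrains death receptor signalling, stood at 731, 1262 and 1579 in astaxanthin, 4571, 2218 and 1967 in model and 803, 782 and 634 in sham (-1.26 ± 0.38 (SE)). Bax, which opens the mitochondrial outer membrane, stood at 1201, 1196 and 1435 in astaxanthin, 1516, 2214 and 1269.8 in model and 1239.7, 1359 and 1100.5 in sham, and its groups overlapped (-0.35 ± 0.23 (SE); -0.08 in the smaller fit). Bcl2, which holds it back, stood at 633, 952 and 690.3 in astaxanthin, 899, 1299.7 and 878 in model and 1111, 952 and 1392 in sham and overlapped too (-0.43 ± 0.25 (SE); -0.13 in the smaller fit).

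Inflammatory and injury lists had negative medians with all 9 libraries and medians nearer to 0 without astaxanthin 1 and model 3. Of 32 cytokines and chemokines tested, 30 had a negative log2 fold change, with a median of -1.25. Only 2 were lower at an unadjusted limma p under 0.05 (Il11 and Tgfb1), a share near the 5.03% of all genes. In the smaller fit the median was -0.21 with 3 lower, against 4.14% of all genes. Tgfb1, the transforming growth factor, stood at 593, 1213 and 757 in astaxanthin, 4936, 3238 and 1229 in model and 343, 406 and 407 in sham (-1.72 ± 0.48 (SE)). Il1b, at 0 in sham, stood at 59.7, 254 and 55.6 in astaxanthin and 253, 902 and 161 in model, with overlap (-1.80 ± 0.81 (SE); -0.76 in the smaller fit). Il6 (-1.61 ± 1.16 (SE)), Tnf (-0.66 ± 0.82 (SE)) and the monocyte attractant Ccl2 (-1.06 ± 0.72 (SE)) overlapped between the groups as well, and in the smaller fit they stood at -0.22, 0.67 and -0.20. Ccl2 stood at 1065, 5011 and 10803 in astaxanthin and 10518, 7300.3 and 6777 in model, so astaxanthin 3 exceeded all model libraries. Among inflammasome and necroptosis genes, Nlrc4, an inflammasome sensor, stood at 19.5, 51.6 and 25.4 in astaxanthin and 137, 214 and 96.9 in model (-2.22 ± 0.53 (SE)), and the interleukin-1 antagonist Il1rn at 138, 562 and 121 and 1414, 1429 and 640.3 (-2.36 ± 0.61 (SE)).

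Matrix remodelling held the most lower genes after the immediate early genes, 14 of 29, each with groups that did not overlap. Of all genes 5.03% were lower at an unadjusted limma p under 0.05 and 7.24% did not overlap in that direction. The list's median of -1.40 was -0.39 in the smaller fit, with 7 lower, against 4.14% of all genes. Thbs1, a matrix protein that activates transforming growth factor, stood at 932, 1032 and 1291 in astaxanthin, 10214, 11720.2 and 2012 in model and 1039.6, 1184 and 716 in sham. The astaxanthin libraries overlapped sham, while model 1 and 3 lay far above model 4 (-2.53 ± 0.60 (SE), limma adjusted p = 0.548; -1.97 in the smaller fit). Plaur, the receptor for the protease urokinase, stood at 239, 350.3 and 481 in astaxanthin, 2860.1, 1534 and 881 in model and 55, 79.1 and 28 in sham (-2.19 ± 0.53 (SE)). The membrane-bound protease Mmp14 stood at -1.59 ± 0.47 (SE). The collagenase Mmp13 stood at 39, 34.1 and 15.5 in astaxanthin and 430.1, 399 and 96.9 in model. Mmp10 was listed at 0 in all astaxanthin and sham libraries and at 5.6, 9.3 and 4.5 in model, near the floor of 3 reads. Timp1, the protease inhibitor, stood at 2472, 13203 and 10169.9 in astaxanthin and 25319, 125632 and 16593 in model, and its log2 fold change of -2.44 ± 0.82 (SE) was -0.82 without astaxanthin 1 and model 3.

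Reactive astrocyte genes had 9 of 24 lower, against 5.03% of all genes, with a median of -1.29. The median was -0.31 in the smaller fit, with 4 lower and 1 higher, against 4.14% and 3.55% of all genes. Stat3, the factor through which gp130 cytokines act, stood at 8679, 12358 and 11726 in astaxanthin, 25036, 21144 and 14899 in model and 4532, 4045 and 4374 in sham, without overlap of astaxanthin and model (-0.88 ± 0.22 (SE); -0.68 in the smaller fit). Gfap stood at 45886, 175495 and 197759.9 in astaxanthin, 200461, 99814 and 201186 in model and 22916, 13459 and 39303 in sham. Astaxanthin 2 and 3 stood near model 1 and 4, and both astaxanthin 1 and model 3 were lower (-0.45 ± 0.62 (SE); -0.11 in the smaller fit). Complement genes had 5 of 19 lower, or 2 in the smaller fit, against 5.03% and 4.14% of all genes. They were led by C1qc, a chain of the initiating protein, at 2029, 2922 and 2129.8 in astaxanthin and 5487, 8435 and 3808 in model (-1.27 ± 0.29 (SE); -0.87 in the smaller fit). Of 22 homeostatic astrocyte genes 3 were higher and 0 lower, against 3.86% and 5.03% of all genes, with a median of 0.40. In the smaller fit 2 were higher, against 3.55%. The higher genes with all libraries included the amino acid exchanger Slc7a10 (1.21 ± 0.44 (SE); 0.63 in the smaller fit) and the glycolytic enzyme Aldoc (1.15 ± 0.46 (SE); 0.74 in the smaller fit). Aldoc reached 136826 in astaxanthin 1 and no more than 45761 in the other libraries with an occlusion.

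**Figure D4:**
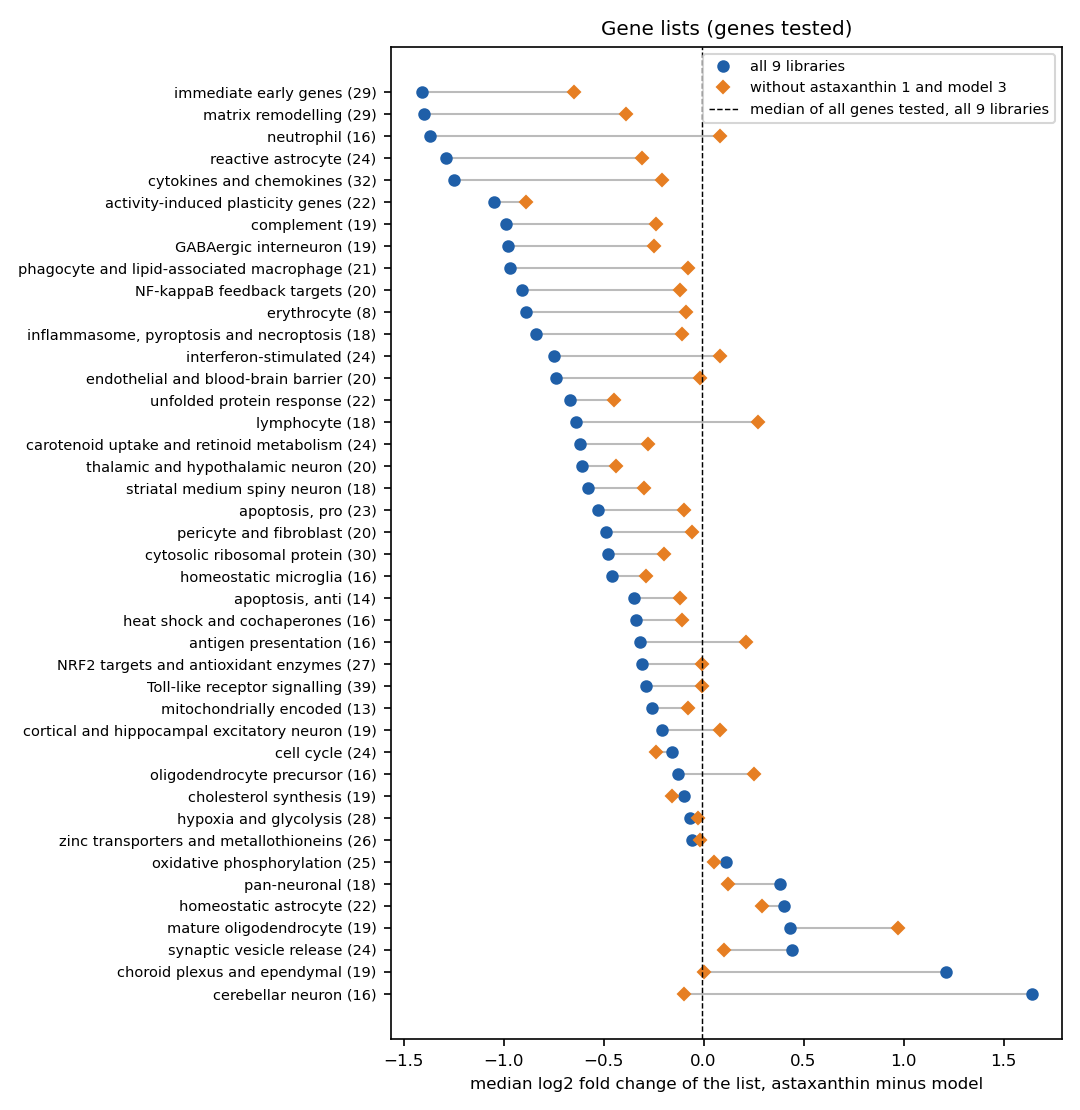
Median log2 fold change of astaxanthin minus model (x axis) for each gene list (y axis, number of genes tested in brackets), circles for the fit of all 9 libraries and diamonds for the fit without astaxanthin 1 and model 3, with a dashed line at the median of all genes. Immediate early and plasticity genes stay below -0.6 in both fits, while neutrophil, endothelial, cerebellar and choroid plexus lists come to lie near 0.

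The antioxidant genes, of interest for a carotenoid, had mostly negative log2 fold changes with all libraries and a median near 0 in the smaller fit. Of 27 NRF2 targets and antioxidant enzymes, 21 had a negative log2 fold change, with a median of -0.31 against -0.01 for all genes. In the smaller fit the median was -0.01, with 2 lower and 0 higher, against 4.14% and 3.55% of all genes. With all libraries 3 were lower and 1 higher at an unadjusted limma p under 0.05, against 5.03% and 3.86% of all genes. Beside Slc7a11 the lower ones were Txnrd1, the thioredoxin reductase, at 4513, 8642 and 8295 in astaxanthin, 16116, 12691 and 11062 in model and 4461, 5099.6 and 4926 in sham (-0.94 ± 0.27 (SE); -0.66 in the smaller fit), and Hmox1, the inducible heme oxygenase. Hmox1 stood at 2488, 8829 and 5922 in astaxanthin, 21118, 44416 and 6009 in model and 239, 287 and 341 in sham, and astaxanthin 2 exceeded model 4 (-1.81 ± 0.70 (SE); -0.64 in the smaller fit). Keap1, which holds the factor NRF2 inactive, was the higher gene, at 4720.2, 3648 and 4786 in astaxanthin against 3069, 3520.5 and 3507 in model and 4850.1, 5289 and 5039.5 in sham (0.37 ± 0.16 (SE)). The gene of NRF2 itself, Nfe2l2, stood at 1935, 1931 and 1654 in astaxanthin and 2283, 2219.7 and 1200.1 in model, a log2 fold change of 0.01 ± 0.27 (SE), or 0.11 in the smaller fit.

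Of 24 genes of carotenoid uptake and retinoid metabolism, 4 were lower and 2 higher, against 5.03% and 3.86% of all genes, with a median of -0.62. In the smaller fit 1 was lower and 1 higher, shares near the 4.14% and 3.55% of all genes, with a median of -0.28. Lrat, which esterifies retinol, was near the floor at 8.7, 0 and 0 in astaxanthin and 32.6, 87.5 and 20.8 in model (-4.24 ± 1.22 (SE)). The retinoid X receptor Rxrb stood at 5932, 5195 and 4390.5 in astaxanthin, 3207, 3620.3 and 3966 in model and 4311, 4564 and 4096 in sham, with the astaxanthin libraries above every model library (0.52 ± 0.16 (SE); 0.42 in the smaller fit). Aldh1a1, which makes retinoic acid, stood at 2072, 592 and 3296 in astaxanthin and 341, 469 and 842 in model (1.63 ± 0.68 (SE)), with astaxanthin 2 inside the model range. Bco1, which cleaves carotenoids, stood at 4.3, 3.9 and 41.7 in astaxanthin and 35.4, 13.4 and 39.9 in model, and the groups overlapped.

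Genes of the unfolded protein response were lower in 8 of 22, against 5.03% of all genes, with a median of -0.67. Without astaxanthin 1 and model 3 the median was -0.45 and 5 were lower, against 4.14% of all genes. The chaperones of the endoplasmic reticulum led: Calr stood at 24599, 28204 and 26351 in astaxanthin, 53231, 44101 and 33131 in model and 27982, 25078 and 26038 in sham. The astaxanthin libraries overlapped sham and lay below model (-0.70 ± 0.20 (SE); DESeq2 adjusted p = 0.0404). Hsp90b1 stood at -0.79 ± 0.25 (SE), the stress-spliced factor Xbp1 at -0.49 ± 0.17 (SE) and Hspa5, the lumenal master chaperone, at -0.88 ± 0.30 (SE) with overlapping groups. Cytosolic heat shock genes had 1 of 16 lower, a share near the 5.03% of all genes, Hspb8 (-1.30 ± 0.39 (SE); -0.60 in the smaller fit), and a median of -0.34. The hypoxia and glycolysis list had 3 of 28 higher and 1 lower, against 3.86% and 5.03% of all genes, with a median of -0.07. In the smaller fit 3 were higher and 2 lower, against 3.55% and 4.14%, with a median of -0.03. In this list Hif1a, the oxygen-regulated factor, stood at 11325, 9297 and 10359.6 in astaxanthin, 22046, 17914 and 13213 in model and 6504, 6544 and 5979.5 in sham (-0.75 ± 0.20 (SE); -0.80 in the smaller fit). The globin genes Ngb, neuroglobin, and Cygb, cytoglobin, were higher, at 1.24 ± 0.41 (SE) and 0.71 ± 0.23 (SE). Ngb stood at 158, 198 and 268 in astaxanthin, 54.9, 108 and 104 in model and 717, 439 and 911 in sham, so astaxanthin lay between the others without overlap. Cytosolic ribosomal protein genes had 8 of 30 lower and 15 without overlap in that direction, against 5.03% and 7.24% of all genes. Their median was -0.48. In the smaller fit it was -0.20 with 0 lower, against 4.14% of all genes. The list stood at 0.55, 1.23 and 0.22 log2 units relative to sham in model 1, 3 and 4.

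Homeostatic microglia genes had 3 of 16 lower and 1 higher, against 5.03% and 3.86% of all genes, with a median of -0.46. In the smaller fit 2 were lower and 0 higher, against 4.14% and 3.55%. The fractalkine receptor Cx3cr1 stood at 1343, 1929 and 1743 in astaxanthin, 2544, 2731 and 2654 in model and 2438, 2278 and 2781 in sham, with every astaxanthin library below the others (-0.68 ± 0.18 (SE); -0.50 in the smaller fit). Csf1r, the receptor on which microglia depend, stood at -0.51 ± 0.19 (SE), and Aif1, a calcium-binding marker of microglia, at -0.79 ± 0.35 (SE) with overlap (-0.29 in the smaller fit). P2ry12, the purine receptor of resting microglia, stood at 411, 118 and 312 in astaxanthin, 249.5, 187 and 275 in model and 973, 1041 and 947 in sham, low in both groups with an occlusion (0.08 ± 0.44 (SE); -0.45 in the smaller fit). Of 21 phagocyte genes 6 were lower, against 5.03% of all genes, among them the receptor Trem1 at 21.7, 30.2 and 19.6 in astaxanthin and 216, 291 and 46.2 in model (-2.56 ± 0.74 (SE)), with a list median of -0.97. In the smaller fit 0 of them were lower, against 4.14% of all genes, and the list median was -0.08.

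Lists of blood and vessel cells had negative medians with all libraries and medians nearer to 0 or above it without astaxanthin 1 and model 3. Neutrophil genes had a median of -1.37, and 0.08 without astaxanthin 1 and model 3, and stood at 2.75, 5.17 and 2.09 log2 units above the sham mean in model 1, 3 and 4 and at 1.60, 2.79 and 2.79 in astaxanthin. Lymphocyte genes went from -0.64 to 0.27, endothelial genes from -0.74 to -0.02, pericyte and fibroblast genes from -0.49 to -0.06 and erythrocyte genes from -0.89 to -0.09 between the same fits. Among endothelial genes Kdr, the main receptor for vascular endothelial growth factor, stood lower in both fits, at 965, 1756 and 798 in astaxanthin, 3814, 4820.2 and 1787 in model and 520.4, 586 and 602 in sham (-1.53 ± 0.40 (SE); -1.14 in the smaller fit). Interferon-stimulated genes went from -0.75 to 0.08, and within them Bst2, a membrane tether of viruses, stood at -1.46 ± 0.48 (SE) and -1.11.

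Of the 19 mature oligodendrocyte genes 0 had an unadjusted limma p under 0.05 with all libraries, at a median of 0.43, and DESeq2 called 0. Without astaxanthin 1 and model 3 the median was 0.97 and 6 were higher, against 3.55% of all genes. They lay at -1.67, 0.01 and -0.89 log2 units from the sham mean in model 1, 3 and 4 and at -0.51, -0.57 and -0.22 in astaxanthin, so model 3 was above every astaxanthin library. Mag, an adhesion protein of myelin, stood at 15768, 21877 and 25733 in astaxanthin, 9249.8, 16883 and 11893 in model and 24516, 13296 and 27685 in sham (0.75 ± 0.34 (SE); 1.18 in the smaller fit). Mal stood at 0.60 ± 0.64 (SE) and 1.65. The sham libraries themselves spread from -0.73 to 0.49 for this list.

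Neuronal lists differed in direction. Medians were 0.38 for pan-neuronal genes, 0.44 for synaptic vesicle genes, -0.21 for cortical and hippocampal excitatory neurons and -0.98 for GABAergic interneurons. In the smaller fit they were 0.12, 0.10, 0.08 and -0.25. Of 24 synaptic vesicle genes 6 were higher and 0 lower, against 3.86% and 5.03% of all genes. In the smaller fit 1 was higher and 2 lower, against 3.55% and 4.14%. Levels relative to sham were -0.17, -1.27 and 0 log2 units in model 1, 3 and 4. The vesicle GTPase Rab3a stood at 22922, 25509 and 27594 in astaxanthin, 13479, 9659 and 21781 in model and 38328, 45954 and 36393 in sham, and its groups did not overlap (0.84 ± 0.28 (SE); 0.63 in the smaller fit). Cplx2, a clamp on vesicle fusion, stood at 17883, 16941 and 18087 in astaxanthin and 8458, 8057 and 16415 in model (0.76 ± 0.28 (SE)). Neurod2 (chromosome 10, 83324442 to 83327986 in rn7), a transcription factor of excitatory neurons, stood at 5918, 4343 and 5173 in astaxanthin, 1069.8, 726 and 2551 in model and 2388, 4056 and 3409 in sham. Every astaxanthin library was above all others, and the log2 fold change was 2.02 ± 0.42 (SE) (limma adjusted p = 0.548), or 1.52 without astaxanthin 1 and model 3. Cerebellar granule cells express Neurod2 too. The cerebellar list stood at 6.44, 1.08 and 0.21 log2 units above the sham mean in astaxanthin 1, 2 and 3, and its part in the Neurod2 level was not tested.

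Regional markers differed between libraries of each group. Striatal genes lay at -1.52, -1.61 and -1.65 log2 units from the sham mean in astaxanthin 1, 2 and 3, at -0.63, 0.02 and -1.64 in model 1, 3 and 4 and at 0.64, 0.88 and -1.52 in sham 1, 3 and 5. Drd1, a dopamine receptor of striatal neurons, stood at 706, 818 and 344 in astaxanthin, 2371, 4055 and 956 in model and 4820.1, 6076 and 619 in sham (-1.84 ± 0.87 (SE)). Arc, Egr2 and Penk are also strongly expressed in striatum. All astaxanthin libraries were as low in striatal genes as model 4 and sham 5 and lower than model 1 and 3 and sham 1 and 3. Region and treatment can therefore not be fully told apart in these libraries. The part of the regional difference between libraries in the immediate early genes was not tested.

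The fit without astaxanthin 1 and model 3 named further genes, none past the adjusted threshold. Lower genes there were led by Slc30a4, Egr2 and Arc, already given, and by the zinc-finger gene Zfp963 at 182, 8.8 and 15.5 in astaxanthin and 212, 23.7 and 153 in model (-3.83). In Zfp963 the omitted astaxanthin 1 is the high and the omitted model 3 the low library of its group. Vwce was low in the astaxanthin libraries kept: astaxanthin 1 stood at 561 and astaxanthin 2 and 3 at 0, with model at 37.2, 46.3 and 35.3. Mrpl17, a protein of the mitochondrial ribosome, was lower than sham in all 6 libraries with an occlusion and lower again in astaxanthin, at 1869.8, 2140 and 2062 in astaxanthin, 3994, 2462 and 3390.1 in model and 4459.8, 4395 and 4436 in sham (-0.81, or -0.67 ± 0.19 (SE) with all). Higher genes included Rgs14, a regulator of G protein signalling in hippocampal CA2 neurons, at 369, 5906 and 6149 in astaxanthin, 2009, 1269.9 and 2096 in model and 4532, 4492 and 3722 in sham. Astaxanthin 1 was the lowest of all libraries, and the log2 fold change was 1.55 without it and model 3, but 0.44 ± 0.94 (SE) with all. Tars2, the mitochondrial threonine tRNA ligase, stood at 1.93 and 1.03 ± 0.56 (SE), with sham at 2643, 2105 and 2618. Shbg, the sex hormone-binding globulin gene, stood at 234, 290 and 222 in astaxanthin, 78.2, 158 and 98.7 in model and 335, 261 and 319.9 in sham, and astaxanthin and model did not overlap (1.52 and 1.20 ± 0.34 (SE)).

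At the level of transcripts 17 of 32824 tested passed the limma threshold (0.0518%), 8 higher (0.0244%) and 9 lower (0.0274%), in 15 genes, while 2112 had an unadjusted p under 0.05 (6.43%). Each belonged to a gene with several transcripts tested, and for 14 of the 17 the gene as a whole lay within 1 log2 unit of no change. How shared reads were assigned to isoforms is not given in the sources used here, so a value of 0 may come from that step. Of the 17, 6 were listed at 0 in all astaxanthin and 5 at 0 in all model libraries, and 9 of these were at 0 in sham too. Across all transcripts, 11 were at 0 in astaxanthin and at 100 or more in every model library and 9 the other way round. For comparison, 62 were at 0 in sham and at 100 or more in model, and 13 the other way round. Between sham and astaxanthin, 41 were at 0 in sham and 8 at 0 in astaxanthin. Leaving out any 1 library, 11 of the 17 kept their call in every fit that tested them. Only 4 of the 17 were called in each of the 9 fits. A transcript above 0 in only 1 group fell under the filter when a library of that group was left out. For such transcripts those fits are missing. Without astaxanthin 1 and model 3, 9 of the 17 could not be tested and 3 of the other 8 passed. With the replicate number as a block, 0 transcripts passed. Transcripts are named here by the largest changes, with a few more chosen after their values were seen.

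Fat3 encodes a giant atypical cadherin that shapes neurites. Its transcript Fat3-203 rose from 0 in all model libraries to 1524, 1542 and 2073 normalised reads in astaxanthin, and sham stood at 4099.6, 2563 and 1905. This is at least 600-fold higher against the floor (limma adjusted p = 0.000133), and it passed in all 9 fits without 1 library and without astaxanthin 1 and model 3 (limma adjusted p = 0.00372). The gene as a whole stood at -0.73 ± 0.63 (SE) (-1.13 in the smaller fit), and the longer Fat3-201, at 765, 2030.5 and 2939.9 in astaxanthin and 13666, 2178 and 6174 in model, did not pass (limma adjusted p = 0.75). Fat3-202 fell from 106, 72.6 and 73.5 in model to 0 in astaxanthin and was at 0 in sham.

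Dync1li2 encodes a light intermediate chain of cytoplasmic dynein, the motor that carries cargo toward the cell body. Dync1li2-204 rose from 181, 191 and 269.7 in model to 6035, 4539 and 6139.7 in astaxanthin, with sham at 6207, 4364 and 5996 (log2 fold change 4.71 ± 0.25 (SE), limma adjusted p = 0.000503). Dync1li2-205 rose from 366, 299 and 436 to 4179, 4289 and 4272, with sham at 5134, 4613 and 4277 (3.55 ± 0.19 (SE), limma adjusted p = 0.000503). In both, astaxanthin and sham overlapped and only the model libraries were low. Dync1li2-202 showed the opposite values, 1529, 4097 and 1218 in astaxanthin, 14761, 18481 and 16165 in model and 1851, 6453 and 1412 in sham, but did not pass (limma adjusted p = 0.459). The gene as a whole stood at -0.41 ± 0.16 (SE).

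Nell2, a secreted glycoprotein of neurons, had the largest change. Nell2-202 was at 0 in all model and sham libraries and at 6827, 9220.2 and 14799 in astaxanthin, at least 3600-fold higher (limma adjusted p = 0.000354), where it made up 23.5% to 32.7% of the gene's reads. The gene stood at 0.80 ± 0.50 (SE) (0.45 in the smaller fit), with Nell2-203 at 12634, 21811 and 20029 in astaxanthin, 26298, 8489 and 30992 in model and 39748, 41864 and 38713 in sham. The same pattern, present in astaxanthin alone, was seen for Sh3glb1-204, from a gene of membrane curvature and autophagy, at 667, 1422 and 1126 (at least 376-fold), for Caprin2-202, from an RNA-binding protein gene, at 540.4, 559 and 143 (at least 145-fold), and for Tmem164-202 at 416, 363 and 149.8 (at least 108-fold). Their limma adjusted p were 0.00171, 0.00836 and 0.00593. Each shares its start and end with another transcript of its gene that was present in model, so the 0 depends on how reads were assigned between them. Caprin2-202 passed in 5 of the 6 fits without 1 library that tested it.

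Other transcripts fell to 0 in astaxanthin, among them Tubb6-202 and Usp28-204, which were at 0 in sham too. Tubb6-202, of a beta tubulin, stood at 1252, 1694 and 2943 in model (at least 696-fold lower in astaxanthin, limma adjusted p = 0.00123), beside Tubb6-201 at 1283, 6360.5 and 3884 in astaxanthin and 8705, 12800 and 6632 in model. Usp28-204, of a deubiquitinase, stood at 439, 266 and 491 in model (at least 141-fold lower, limma adjusted p = 0.00286). Dixdc1-204, of a protein of Wnt signalling, stood at 1085, 994 and 451 in model and 1046, 210.2 and 482 in sham (at least 299-fold lower, limma adjusted p = 0.00286). It did not pass without astaxanthin 1 and model 3 (limma adjusted p = 0.0747).

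For 2 genes described above a single isoform carried the lower value. Slc30a4-202 fell from 9046, 5652 and 6133 in model to 1341, 898 and 1244 in astaxanthin, with sham at 5086, 6456 and 4702 (-2.57 ± 0.25 (SE), limma adjusted p = 0.0161), while Slc30a4-201 stood at 166, 985 and 289.9 in astaxanthin and 2.8, 10.4 and 1268 in model. Slc30a4-202 passed in 7 of the 9 fits without 1 library and not without astaxanthin 1 and model 3 (limma adjusted p = 0.0887). Dusp6-202 fell from 8632, 3179 and 3447 to 229, 442 and 313, with sham at 565, 599 and 474 (-3.84 ± 0.42 (SE), limma adjusted p = 0.0356), and passed in 2 of the 9 fits without 1 library and not in the smaller fit (limma adjusted p = 0.157). Dusp6-201 stood at 1232, 1970.4 and 1500.3 in astaxanthin, 135, 1818 and 85.1 in model and 2640.3, 2887 and 2401 in sham. Zbtb4-202, of a repressor that binds methylated DNA, rose from 2024, 2226 and 2191 to 9822, 9280.3 and 7303, with sham at 3124, 2546 and 3022 (2.02 ± 0.18 (SE), limma adjusted p = 0.00787), and the gene as a whole stood at 0.38 ± 0.19 (SE) (0.21 in the smaller fit). It passed in 8 of the 9 fits without 1 library and not in the smaller fit (limma adjusted p = 0.0685).

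**Figure D5:**
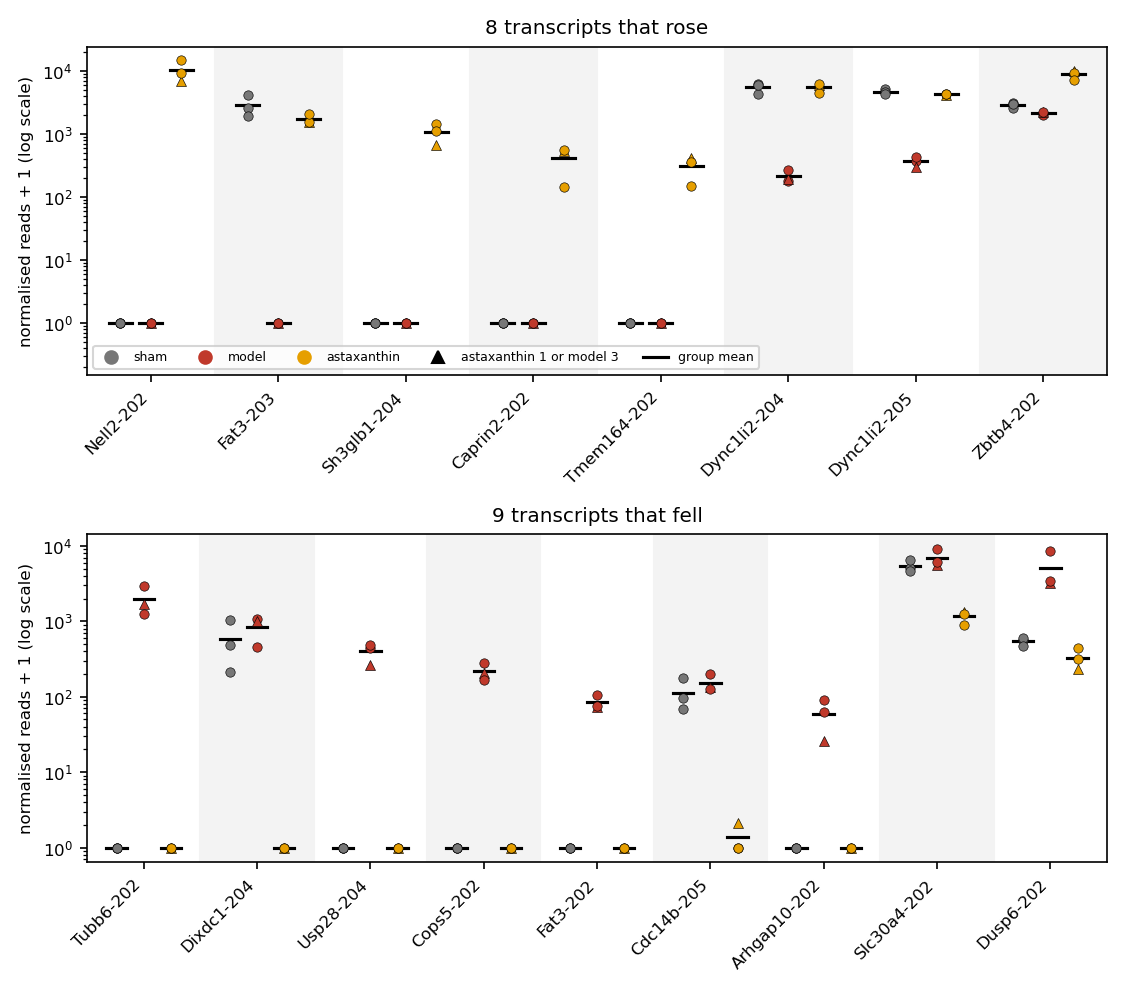
Normalised reads plus 1 (y axis, log scale) of the 17 transcripts that passed, 8 higher (top) and 9 lower (bottom), with 1 point per library, colour by group, a bar at the group mean and triangles for astaxanthin 1 and model 3. Points at 1 are libraries with 0 reads. Dync1li2-204, Dync1li2-205 and Fat3-203 are low or at 0 in model alone, and Nell2-202 is above 0 in astaxanthin alone.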

How the data were processed

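RNA of 9 rat brain libraries, 3 in each group, was sequenced. The authors deposited normalised reads per gene and per transcript, a signal that is not whole. The build rn7 and the tools FastQC, STAR, StringTie and DESeq2 are listed, per the submitters' processing notes. The normalization factor, the strandedness and the assignment of reads to isoforms are not given in the sources used here. The low values of a library are whole multiples of 1 read: 100% of values gave whole reads within a tolerance of 0.01, and these recovered reads entered edgeR 4.0.16, DESeq2 1.42.0 and limma-voom as alternatives.

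Genes above 0.5 in at least 3 libraries were tested with limma 3.58.1 in R 4.3.3 on log2(deposited value + 1), with all 9 libraries sharing 1 estimate of the spread, and p-values were adjusted over all genes by Benjamini-Hochberg. A fold change is on that scale and understates the change of low genes. An exact permutation test of 3 against 3 libraries cannot go below p = 0.1. On simulated data with 18781 genes the fit recovered 1% of 100 genes changed 2-fold and 72% of 100 changed 8-fold, with 7 false calls. The changed genes were drawn from those above a minimum mean level, and no library was simulated to stand apart from its group. Where a group was at 0, folds were set against a floor of 3 reads per library, which covers counting error only. Named genes were the 8 with the smallest p in each direction, with all libraries and without astaxanthin 1 and model 3, up to 4 members of each list with the smallest p, a set of genes of interest, and up to 8 transcripts with the largest change. The comparison's members and the 42 gene lists were chosen with earlier results of these data known. Other genes are said to be named after their values were seen, or are further list members. The alternatives were other pseudocounts, filters, scalings and weights, a replicate block, other tools, and fits without single libraries. A few genes are counted in their lists but are not reported here by name.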

Additional observations from a re-analysis of the deposited data

How the results depend on the processing

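The count of 0 genes with limma became 2 with array weights (Slc30a4 and Egr2, lower), 0 to 3 over the 9 fits without 1 library (3 without model 4) and 204 with DESeq2. It stayed 0 with the other pseudocounts, filters, TMM scaling, the 6 libraries alone, edgeR, limma-voom and without astaxanthin 1 and model 3. The 17 transcripts ranged from 15 to 36 without 1 library (36 without astaxanthin 2, 32 without model 4) and were 19 without astaxanthin 1 and model 3. With the replicate number as a block, 0 genes and 0 transcripts passed. The labels do not say whether the numbers pair samples. Deviations of same-numbered astaxanthin and model libraries correlated at -0.10 for number 1 and -0.12 for number 3, too few values to decide it. Of 4166 values of 199 named genes, 4095 kept sign and side of the threshold and 45 came to pass it.

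The sign differed in 26 values of 12 genes, and the cause was not tested. Without astaxanthin 1 and model 3 the log2 fold change was 0.03 for Nfkb1 and Rela, 0.67 for Tnf, 0.33 for S100a9, -0.13 for Grm4 and 0.19 for Psmb8. With array weights it was 0.04 for Nfkb1, 0.40 for Tnf and 0.08 for S100a9. With the replicate block it was -0.08 for Rgs14 and -0.33 for Nfe2l2. With edgeR and DESeq2 it was 2.24 for Vwce in both, and -0.03 and -0.04 for Nfe2l2. Without 1 library it ranged from -0.24 to 1.78 for Rgs14 (-0.21 without astaxanthin 2), -0.39 to 0.10 for Nfkb1, -1.11 to 0.23 for Tnf, -0.29 to 0.17 for Nfe2l2, -0.83 to 0.23 for Gfap, -2.66 to 0.01 for S100a9 and -0.02 to 1.11 for Tnr. Of 882 list medians, 25 differed by more than the spread between replicates. With 3 libraries a group, changes near 2-fold were mostly not detectable.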
